A study of Arabidopsis thaliana with 7 samples.

Results

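The nuclear genes for plastid ribosomal proteins were followed in Arabidopsis thaliana seedlings, 10 days after germination, of wild type (WT) and of the hon45 mutant. The 39 genes were defined by function, with earlier results of these data known: they encode proteins of the small (30S) and large (50S) subunit of the plastid ribosome and the plastid-specific ribosomal proteins, and they are 39 of 32548 genes in the count table. They comprise 9 genes of the 30S subunit, 24 of the 50S subunit and 6 for plastid-specific proteins. All 39 had counts in every library, passed the count filter and were among the 29226 genes tested. WT is Col-0, and hon45 is labelled as a mutant, with HON4 and HON5 affected by its name. No source used here gives its alleles or says how many lines were used. Whole seedlings of both genotypes were grown on agar with MS medium at 22 °C under 16 h of light and 8 h of darkness, with no other treatment, and 2 RNA-seq libraries were made for each genotype from poly(A) RNA. Another 3 samples of the series, Myc-tag chromatin precipitates of WT and of a HON5-Myc transgenic line, were not analysed here. Nothing in the labels says that the 2 libraries of a genotype came from separate cultures, so the p-values measure the spread between these libraries, which may be technical.

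Plastids translate with a ribosome of bacterial type. Its RNAs and a minority of its proteins are encoded in the plastid genome, while the majority of its proteins are encoded in the nucleus, made on cytosolic ribosomes and imported. The ribosome makes the plastid-encoded subunits of the photosystems, of Rubisco and of the plastid RNA polymerase, and in Arabidopsis the loss of many of its proteins stops embryo development or gives pale plants. Plastid-specific ribosomal proteins are components with no counterpart, or only a distant one, in the ribosome of Escherichia coli.

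Depth was similar in the 4 libraries, with 53858439 to 63543079 counts each. Both HON genes code for chromatin proteins that carry a linker histone domain, and their transcripts were lower in hon45. HON5 had 97.7 and 91.7 CPM in WT and 14.0 and 15.9 CPM in hon45, and HON4 had 99.3 and 104 CPM in WT and 39.2 and 41.0 CPM in hon45 (log2 fold changes of −2.66 and −1.34, edgeR quasi-likelihood adjusted p = 3.09e-12 and 5.42e-08). CPM are counts scaled to the TMM-adjusted library total. A gene is said to have risen or fallen where its p in the quasi-likelihood test of edgeR, adjusted by Benjamini-Hochberg over all 29226 genes, was under 0.05.

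In these 4 libraries, messages for the plastid ribosome were higher in hon45 as a group, by a small amount. The genes share the same libraries and moved together, so counts of genes are not counts of independent observations. The group as a whole was not tested. Of the 39 genes 38 had a log2 fold change above 0, against 44.7% of all tested genes. Of the 39, 15 rose and 0 fell, against 2.48% of all tested genes called higher and 1.63% called lower. At an unadjusted p under 0.05 there were 35, against 17.9% of all tested genes in either direction. Their median log2 fold change was 0.40 (1.32-fold), while the median of all tested genes was −0.04, and 94.1% of tested genes had a lower value than the members' median. Both hon45 libraries lay above both WT libraries in 38 of the 39 genes, an arrangement found in 23.1% of all tested genes. The exception was PSRP3 (AT5G15760), the gene with the lowest level. The summed level of the 39 genes was 3748.4 and 4797.5 CPM in WT replicates 1 and 2 and 5476.5 and 5562.1 CPM in hon45 replicates 1 and 2. WT replicate 1 was thus the lowest library and the 2 hon45 libraries were nearly level. The members' median log2 deviation from each gene's mean was −0.397 and 0.0008 in WT replicates 1 and 2. In hon45 replicates 1 and 2 it was 0.187 and 0.195, and the pooled SD within genotypes was 0.199. Changes stayed below 1.5-fold in all but 2 genes, RPL15 and RPL19 (AT4G17560). In whole seedlings, a larger share of cells with these messages and more message per cell cannot be told apart.

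**Figure D1:**
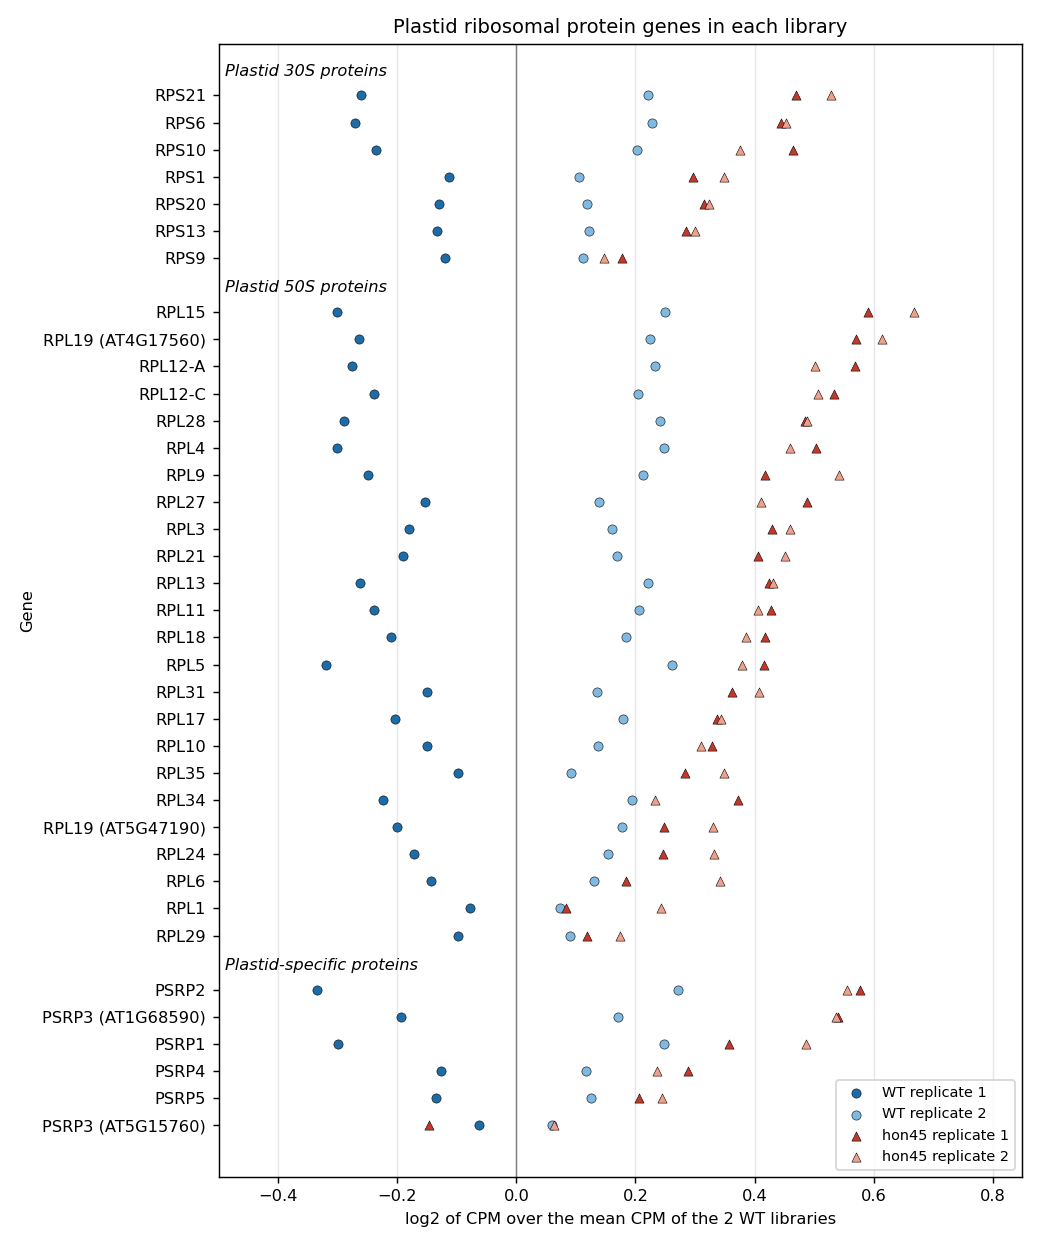
Level of 37 of the 39 genes in each library, as the log2 of its CPM over the mean CPM of the 2 WT libraries; circles are WT and triangles hon45, and genes are ordered by fold change within each class. WT replicate 1 lies left of WT replicate 2 in all 37 genes drawn, and both hon45 libraries lie right of both WT libraries in 36.

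The WT libraries differed from each other by nearly as much as the genotypes did. WT replicate 2 lay above WT replicate 1 in 39 of 39 genes, by a median of 0.38 on the log2 scale (0.12 to 0.61), against 49.5% of all tested genes, and the gap was larger than the fold change in 20 of the 39. The hon45 libraries lay close together, with a median difference of 0.01 on the log2 scale, and 33 of the 39 genes differed by less than 0.1. The count of calls differed with the library left out. Without WT replicate 1 the members' median was 0.21 and 3 genes rose, RPL15, RPL19 (AT4G17560) and PSRP3 (AT1G68590). Without WT replicate 2 the median was 0.62 and 36 rose. Without hon45 replicate 1 or hon45 replicate 2 the medians were 0.42 and 0.37 and 0 rose, with 31 and 23 genes at an unadjusted p under 0.05 in the edgeR quasi-likelihood test, against 19.6% and 10.4% of all genes tested in these fits. Over all genes, the share called higher in these 4 fits was 1.97%, 7.46%, 0.615% and 0.122%. Each of them leaves one genotype with 1 library, which is assumed to vary like the other genotype. The median stayed above 0 in all 4 fits, and 38 or 39 of the 39 genes lay above 0 in each. That direction was fixed beforehand, because both hon45 libraries lay above both WT libraries in 38 of the 39. It is no separate support.

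**Figure D2:**
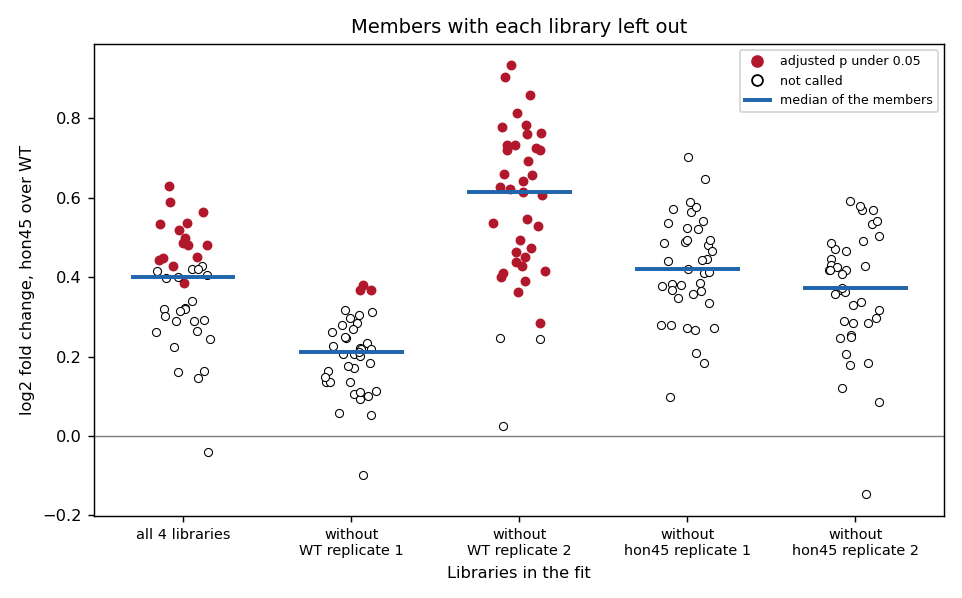
Log2 fold change of each of the 39 genes with all 4 libraries and with each library left out in turn; filled points have an adjusted p under 0.05 and the blue bar is the median of the 39. The median is 0.40 with all libraries, 0.21 without WT replicate 1 and 0.62 without WT replicate 2.

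The number of calls also depended on the tool, while the direction, read from the same 4 libraries each time, did not. DESeq2 called 19 of the 39 higher, against 5.22% of the genes to which it gave an adjusted p. Limma-voom called 20 (2.79% of all tested genes), the edgeR exact test 14 (3.31%) and the older form of the edgeR quasi-likelihood method 11 (2.37%). The exact test thus called more genes in all than the reported fit and 1 member fewer. In each of these fits 38 of the 39 lay above 0. The older form is the package default and was run first. The reported form was chosen later, by its number of calls over all genes. On the FPKM values that the authors deposited, fragments scaled for transcript length and depth, both hon45 libraries again lay above both WT libraries in 38 of 39 genes, against 26.3% of genes with both kinds of value. None of the 39 passed there with limma-trend on log2(FPKM + 1), where the median log2 difference was 0.42, the smallest adjusted p was 0.101 and 31 had an unadjusted p under 0.05. Of all genes tested on FPKM 0.205% were called higher and 22.8% had an unadjusted p under 0.05. The members have short transcripts, with a median length of 629 bases implied by counts and FPKM together, against 1384 bases over all tested genes. With a gene-length trend removed from each library, 18 rose when genes at 5 CPM or more set the trend (1.59% of all genes tested), and 15 when genes at 1 CPM or more did (1.81%). Among the 17 members that overlap another counted gene, reads of both genes may be counted together. With all overlapping genes left out of the fit, 13 of the 22 members that remained rose (3.2% of the genes tested in that fit) and all 22 lay above 0.

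Within the small subunit, which binds messenger RNA and holds the decoding site, 2 of 9 genes rose and all 9 lay above 0, with log2 fold changes from 0.16 to 0.50 and a median of 0.32. RPS21 (AT3G27160; TAIR10 chromosome 3, 10017476 to 10019090), also named GHS1 after the glucose-hypersensitive seedlings of its mutant, had 71.7 and 100.1 CPM in WT replicates 1 and 2 and 119 and 124 CPM in hon45 replicates 1 and 2. All 4 values were ordered by genotype, with the largest step between the WT libraries. Its mean went from 85.9 ± 20.1 to 121 ± 3.54 CPM (SD, n = 2 per genotype). That is a rise of 0.50 on the log2 scale (SE 0.12, adjusted p = 0.0263 in edgeR's quasi-likelihood test). RPS6 (AT1G64510; chromosome 1, 23954803 to 23956255) had 74.8 and 106 CPM in WT and 123 and 124 CPM in hon45, and rose by 0.45 (SE 0.12, adjusted p = 0.047 in the same test). The span of RPS6 overlaps AT1G64520, and its counts may include reads of that gene. RPS21 and RPS6 did not pass without WT replicate 1 (edgeR adjusted p = 0.146 and 0.357), without hon45 replicate 1 (0.0922 and 0.137) or without hon45 replicate 2 (0.306 and 0.345).

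The other 7 genes of the small subunit were not called. RPS10 (AT3G13120) had 67.0 and 90.9 CPM in WT and 109 and 102 CPM in hon45, with a log2 difference of 0.42 (adjusted p = 0.0514 in edgeR's quasi-likelihood test). It stood just outside the threshold. RPS1 (AT5G30510), the largest protein of the small subunit, whose bacterial counterpart binds messenger RNA, had 220.2 and 256 CPM in WT and 292 and 303 CPM in hon45, with a log2 difference of 0.32 (SE 0.11, adjusted p = 0.11). RPS20 (AT3G15190) and RPS13 (AT5G14320) stood at log2 differences of 0.32 and 0.29. RPS9 (AT1G74970) had the smallest difference of the class, 0.16 (SE 0.10, adjusted p = 0.438), with 109 and 128 CPM in WT and 134 and 132 CPM in hon45. In RPS9 the upper WT library lay close below the lower hon45 library.

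**Figure D3:**
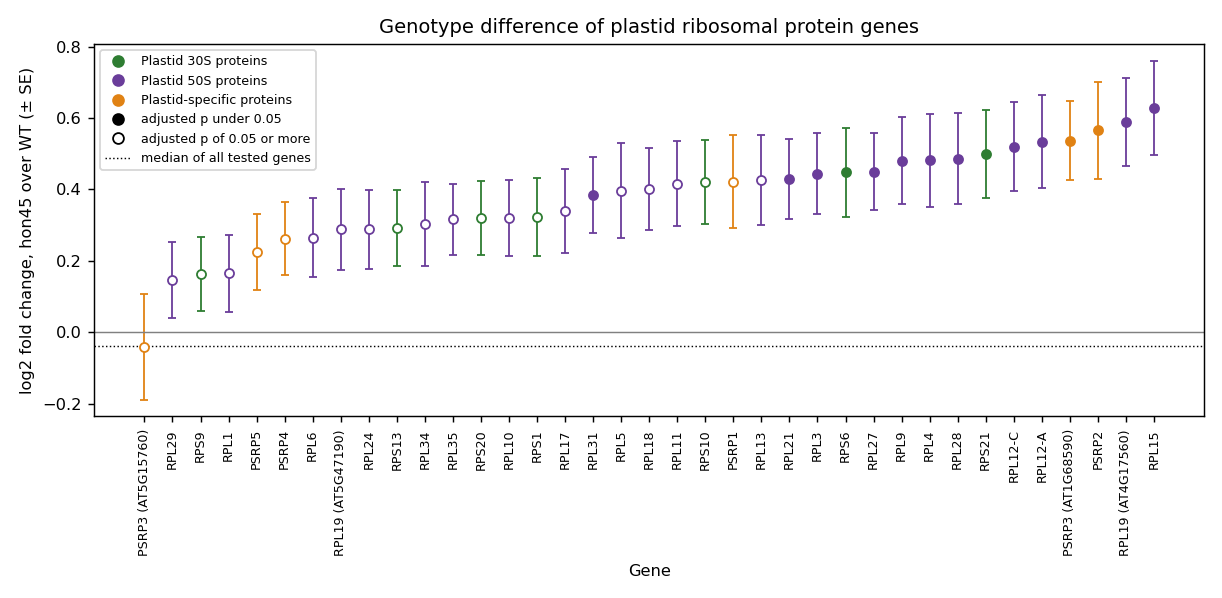
Log2 fold change, hon45 over WT, with its standard error for 37 of the 39 genes in rising order; colours mark the class, and filled points have an adjusted p under 0.05. The values run from −0.04 for PSRP3 (AT5G15760) to 0.63 for RPL15, and the dotted line is the median of all tested genes, −0.04.

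In the large subunit, which forms peptide bonds, 11 of 24 genes rose, 0 fell and all 24 lay above 0, with a median of 0.41. The stalk that recruits translation factors is built from RPL12 on RPL10, next to RPL11. RPL12-A (AT3G27830; TAIR10 chromosome 3, 10318505 to 10319432) had 161 and 229.5 CPM in WT replicates 1 and 2 and 289.8 and 276 CPM in hon45 replicates 1 and 2, and RPL12-C (AT3G27850; chromosome 3, 10324839 to 10325713) had 155 and 211 CPM in WT and 265 and 260.1 CPM in hon45. In both genes the hon45 libraries were higher than either WT library. They rose by 0.53 (SE 0.13, edgeR quasi-likelihood adjusted p = 0.026) and 0.52 (SE 0.12, adjusted p = 0.0225) on the log2 scale. The 2 genes are closely related neighbours and their values are uncertain one by one: counts and FPKM together imply lengths of 1498 and 1266 bases, more than the 928 and 875 bases of their loci. RPL12-A also overlaps AT3G27831, and its counts may include reads of that gene. The other stalk genes were not called. RPL11 (AT1G32990) had 66.5 and 90.6 CPM in WT and 106 and 104 CPM in hon45, with a log2 difference of 0.42 (adjusted p = 0.0534), and RPL10 (AT5G13510) 83.4 and 102 CPM in WT and 116 and 115 CPM in hon45, with a difference of 0.32 (adjusted p = 0.0973). Neither RPL12 gene passed without WT replicate 1 (edgeR adjusted p = 0.16 and 0.122), without hon45 replicate 1 (0.116 and 0.102) or without hon45 replicate 2 (0.211 and 0.229).

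RPL15 and one of the RPL19 genes had the largest rises of all 39. RPL15 (AT3G25920; chromosome 3, 9489221 to 9492635), a core protein of the large subunit, had 84.4 and 124 CPM in WT replicates 1 and 2 and 157 and 165 CPM in hon45 replicates 1 and 2. Its hon45 values lay above both WT values, and the WT libraries lay 0.55 apart on the log2 scale. Its mean went from 104 ± 27.8 to 161 ± 6.03 CPM (SD, n = 2 per genotype). It rose by 0.63 on the log2 scale (SE 0.13, edgeR quasi-likelihood adjusted p = 0.0106). RPL19 (AT4G17560; chromosome 4, 9780279 to 9782183) had 35.1 and 49.3 CPM in WT and 62.7 and 64.6 CPM in hon45 and rose by 0.59 (SE 0.12, adjusted p = 0.0106). The protein L19 lies at the interface with the small subunit in bacterial ribosomes. Both genes passed without WT replicate 1, at 0.38 and 0.37 on the log2 scale (edgeR adjusted p = 0.0181 and 0.0185), but not without hon45 replicate 1 (0.0508 and 0.0592) or hon45 replicate 2 (0.191 and 0.191). RPL15 overlaps AT3G25910, and its counts may include reads of that gene.

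Among proteins near the peptidyl transferase centre and the exit tunnel, RPL3, RPL4 and RPL27 rose. RPL3 (AT2G43030; chromosome 2, 17894836 to 17895866) had 129.8 and 164 CPM in WT and 198 and 202 CPM in hon45, a rise of 0.44 (SE 0.11, edgeR quasi-likelihood adjusted p = 0.0309). RPL4 (AT1G07320; chromosome 1, 2249133 to 2250529), which lines the tunnel, had 87.1 and 127 CPM in WT and 152 and 148 CPM in hon45, a rise of 0.48 (adjusted p = 0.0427). RPL27 (AT5G40950; chromosome 5, 16410782 to 16412063), whose bacterial counterpart reaches the peptidyl transferase centre, had 87.2 and 107 CPM in WT and 136 and 129 CPM in hon45, a rise of 0.45 (adjusted p = 0.0225). RPL4 had the wider WT gap of the 3, and RPL27 the narrower. RPL24 (AT5G54600) and RPL29 (AT5G65220), which sit at the tunnel exit, were not called. RPL24 had 111 and 139 CPM in WT and 148 and 157 CPM in hon45, with a log2 difference of 0.29 (adjusted p = 0.163), and RPL29 193 and 219.7 CPM in WT and 224 and 233 CPM in hon45, with a difference of 0.15 (adjusted p = 0.504). RPL29 was the most abundant message of the 39 by FPKM and had the smallest difference of the large subunit. Without WT replicate 1 the adjusted p of RPL3, RPL4 and RPL27 was 0.169, 0.318 and 0.0803, and without hon45 replicate 1 or hon45 replicate 2 they had 0.112 to 0.327, 0.142 to 0.287 and 0.135 to 0.229 (edgeR quasi-likelihood).

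The remaining called genes of the large subunit were RPL9, RPL21, RPL28 and RPL31. RPL9 (AT3G44890; chromosome 3, 16386434 to 16388466) had 52.2 and 71.8 CPM in WT and 82.8 and 90.3 CPM in hon45 and rose by 0.48 (edgeR quasi-likelihood adjusted p = 0.0303). RPL21 (AT1G35680; chromosome 1, 13208736 to 13210418) had 94.2 and 121 CPM in WT and 142 and 147 CPM in hon45 and rose by 0.43 (adjusted p = 0.0362). RPL28 (AT2G33450; chromosome 2, 14173579 to 14174533) had 35.5 and 51.3 CPM in WT and 60.8 and 60.9 CPM in hon45, with the smallest gap between hon45 libraries among the 39 genes on the log2 scale, and rose by 0.49 (adjusted p = 0.0362). RPL31 (AT1G75350; chromosome 1, 28272071 to 28272832) had 66.3 and 80.8 CPM in WT and 94.5 and 97.6 CPM in hon45 and rose by 0.38 (adjusted p = 0.0444), the smallest rise among the 15 called genes. All 4 of these genes had both hon45 libraries above both WT libraries. RPL28 overlaps AT2G33460 and RPL31 overlaps AT1G75340, so their counts may include reads of those genes. None of the 4 passed without WT replicate 1 (edgeR adjusted p from 0.161 to 0.245), hon45 replicate 1 (0.0824 to 0.134) or hon45 replicate 2 (0.303 to 0.41). The uncalled genes of the subunit not yet given were RPL13 at a log2 difference of 0.43, RPL18 at 0.40, RPL5 at 0.40, RPL17 at 0.34, RPL35 at 0.32, RPL34 at 0.30, RPL6 at 0.26 and RPL1 at 0.17. RPL1 (AT3G63490), the mobile arm at the exit of spent transfer RNA, had 207 and 230.2 CPM in WT and 232 and 259 CPM in hon45, so that WT replicate 2 and hon45 replicate 1 nearly met.

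Among the plastid-specific proteins, 2 of 6 rose. PSRP2 (AT3G52150; TAIR10 chromosome 3, 19342024 to 19343466), a protein with RNA recognition motifs, had 45.6 and 69.3 CPM in WT replicates 1 and 2 and 85.8 and 84.4 CPM in hon45 replicates 1 and 2. It had the widest gap between WT libraries of all 39 genes, and hon45 lay above both. Its mean went from 57.5 ± 16.8 to 85.1 ± 0.924 CPM, a rise of 0.57 on the log2 scale (SE 0.14, edgeR quasi-likelihood adjusted p = 0.0228). PSRP1 (AT5G24490), related to the bacterial factors that hold idle ribosomes, had 50.03 and 73.2 CPM in WT and 78.9 and 86.2 CPM in hon45, with a log2 difference of 0.42 (adjusted p = 0.0742). PSRP4 (AT2G38140) and PSRP5 (AT3G56910) were not called either, at 0.26 and 0.22 (adjusted p = 0.172 and 0.269). Without WT replicate 1, hon45 replicate 1 and hon45 replicate 2 the edgeR adjusted p of PSRP2 was 0.0981, 0.0965 and 0.214.

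PSRP3 is encoded by a pair of genes that stood at different levels. PSRP3 (AT1G68590; chromosome 1, 25756600 to 25758232) had 48.3 and 62.1 CPM in WT and 80.3 and 80.1 CPM in hon45, with hon45 values that nearly coincide, and rose by 0.54 (SE 0.11), at the smallest adjusted p of the 39 genes, 0.00987 in the edgeR quasi-likelihood test. PSRP3 (AT5G15760; chromosome 5, 5143053 to 5144053) had 7.39 and 8.04 CPM in WT and 6.97 and 8.06 CPM in hon45, with libraries of the genotypes interleaved, and a log2 difference of −0.04 (SE 0.15, adjusted p = 0.924). The difference between the 2 fold changes was not tested. Per length, the first gene stood at 94.1 and 125 FPKM in WT and 161 and 159 FPKM in hon45, and the second at 10.2 and 10.3 FPKM in WT and 8.02 and 10.3 FPKM in hon45. The PSRP3 gene on chromosome 1 passed without WT replicate 1 (edgeR adjusted p = 0.0176) but not without hon45 replicate 1 (0.0726) or hon45 replicate 2 (0.187). The sign of the chromosome 5 gene was not fixed: it was 0.03 without WT replicate 2 and 0.10 without hon45 replicate 1. Counts of both may include reads of overlapping genes, AT1G68585 for the chromosome 1 gene and AT5G15770 for the chromosome 5 gene. The RPL19 pair was closer. RPL19 (AT5G47190; chromosome 5, 19164246 to 19166107) had 66.2 and 86.0 CPM in WT and 90.3 and 95.7 CPM in hon45 and a log2 difference of 0.29 (SE 0.11, adjusted p = 0.173), below the 0.59 of AT4G17560, and by FPKM it was the more abundant of the pair, at 131 against 60.2 on average over the 4 libraries.

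Levels per length lay in a narrow band. Mean FPKM over the 4 libraries ran from 60.2 for RPL19 (AT4G17560) to 429.6 for RPL29 in 38 of the 39 genes, with a median of 182 over all 39, while PSRP3 (AT5G15760) stood at 9.70. The median over tested genes with both kinds of value was 5.02 FPKM. After RPL29 came RPL17 at 334 and PSRP5 at 321 FPKM, and these 3 abundant messages had log2 fold changes of 0.15, 0.34 and 0.22, none of them called. At the low end above PSRP3 (AT5G15760), RPL19 (AT4G17560), PSRP1 at 73.2 and PSRP2 at 86.2 FPKM had 0.59, 0.42 and 0.57. Across the 38 genes other than AT5G15760, Pearson's r between log2 mean FPKM and the fold change was −0.645 and Spearman's rho −0.651. Over all 39 they were 0.018 and −0.527, so the r near 0 rests on AT5G15760, while rho was negative with and without it. These are values across genes that share the same 4 libraries, not across replicates. The genes lie on all 5 chromosomes, with 12, 5, 11, 2 and 9 on chromosomes 1 to 5. By name in the RefSeq gene table, 9 of the 39 are embryo-defective (EMB) loci. Of these 2 rose, RPL4 and RPL31, and their median was 0.38, against 13 risen and a median of 0.42 in the other 30; the difference was not tested.

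**Figure D4:**
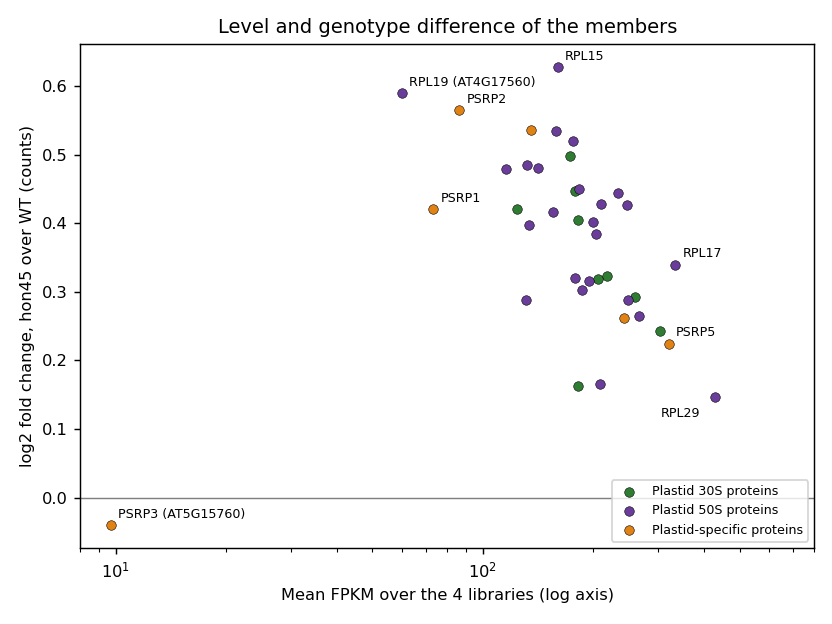
Mean FPKM over the 4 libraries (log axis) against the log2 fold change from counts, 1 point for each of the 39 genes, coloured by class. All but PSRP3 (AT5G15760) lie between 60.2 and 429.6 FPKM, and the 3 most abundant have fold changes from 0.15 to 0.34.

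Some other genes of plastid translation rose. Of 14 plastid translation factors 7 rose, 0 fell and 14 lay above 0 (median log2 fold change 0.44). Over all tested genes 2.48% were called higher and 44.7% lay above 0. WT replicate 2 lay above WT replicate 1 in 14 of the 14 (median gap 0.35 on the log2 scale), against 49.5% of all tested genes. EF-Ts (AT4G29060), the elongation factor that recharges EF-Tu, had 39.5 and 56.0 CPM in WT and 85.2 and 90.3 CPM in hon45 and rose by 0.88 (SE 0.13, edgeR quasi-likelihood adjusted p = 0.000597). EF-P (AT3G08740), an elongation factor, rose by 0.67, FUG1 (AT1G17220), the initiation factor that brings the first transfer RNA, by 0.62, and EF-G (AT1G62750), which drives translocation, by 0.54 (adjusted p = 0.00515, 0.00378 and 0.009). Of 13 genes for plastid ribosome assembly and rRNA maturation 5 rose, 0 fell and 13 lay above 0 (median 0.37), with libraries of the genotypes overlapping in 3. WT replicate 2 was the higher WT library in 12 of these 13 (median gap 0.19). ERA1 (AT5G66470), a GTPase, rose by 0.75, RNJ (AT5G63420), a plastid ribonuclease, by 0.69, the RNA helicase RH3 (AT5G26742) by 0.50 and the GTPase OBGC (AT5G18570) by 0.50 (adjusted p = 0.00545, 0.00509, 0.0154 and 0.0329). Without WT replicate 1 there were 5 risen translation factors and 3 risen assembly genes, without WT replicate 2 there were 12 and 8, without hon45 replicate 1 there were 3 and 2, and without hon45 replicate 2 there were 1, EF-Ts, and 0.

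The 26 listed genes for cytosolic ribosomes and the 7 listed regulators of chloroplast development held no calls with all 4 libraries in the edgeR quasi-likelihood test. The 26 are not the full set of cytosolic ribosomal protein genes. Of these, 11 lay above 0 and 15 below. Both hon45 libraries lay below both WT libraries in 12 and above in 5, against 26.2% and 23.1% of all tested genes. Of 26 cytosolic ribosomal protein genes 0 rose and 0 fell, with 0 at an unadjusted p under 0.05 in the edgeR quasi-likelihood test and 0 calls by DESeq2, and their median was −0.05. The smallest p among them was that of RPS18C (AT4G09800), with 187 and 163 CPM in WT and 149 and 153 CPM in hon45 (log2 difference −0.21, edgeR adjusted p = 0.29). Of 7 regulators of chloroplast biogenesis, such as the GLK and GATA transcription factors, 0 were called in the same test, 2 had an unadjusted p under 0.05 and DESeq2 called 1. GUN1 (AT2G31400), which acts in signalling from plastid to nucleus, had the smallest p among them, with 141 and 153 CPM in WT and 177 and 197 CPM in hon45 (log2 difference 0.34, edgeR adjusted p = 0.0665). The 7 regulators went both ways, with 4 above 0, 3 below and a median of 0.06. Both hon45 libraries lay above both WT libraries in 3 of these regulators and below in 3. Without WT replicate 2, 2 regulators were called higher, GUN1 among them (edgeR adjusted p = 0.00301), and 1 cytosolic gene, RPS18C, lower (0.0303), and with any other library left out 0 of either list were called. No test compared these lists with the plastid ribosomal genes.

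Markers of green and root tissue were read beside this result. Of 38 nuclear photosynthesis genes, which mark green tissue, 0 were called in the reported edgeR quasi-likelihood fit and 6 had an unadjusted p under 0.05. DESeq2 and the edgeR exact test each called 4 higher, limma-voom 5 and the older quasi-likelihood method 2, and without WT replicate 2 the reported test called 7. Their median log2 fold change was 0.12, with 29 above 0, and their summed level was 93291.1 to 104534.6 CPM in WT and 105231.5 to 108278.6 CPM in hon45. The smallest p among them was that of ATPC1 (AT4G04640), a subunit of the plastid ATP synthase, with 496 and 624 CPM in WT and 766 and 768 CPM in hon45 (log2 difference 0.45, edgeR adjusted p = 0.0605). Like the plastid ribosomal genes, 36 of the 38 were higher in WT replicate 2 than in WT replicate 1, by a median of 0.18. Of 13 root markers 5 fell, 0 rose and 8 lay below 0 (median −0.26), among them the root hair expansin EXP18 at −0.61, the aquaporin TIP2;3 at −0.57, PRP3 at −0.52 and CASP1 at −0.51 (edgeR adjusted p = 0.00391, 0.00656, 0.00912 and 0.0123), and 1 fell without hon45 replicate 1 and 0 without hon45 replicate 2. Over all tested genes 1.63% were called lower. The other 5 root markers lay above 0, up to 0.33. Both hon45 libraries lay below both WT libraries in 8 and above in 3, against 26.2% and 23.1% of all tested genes. With 1 library left out the median of the root markers ran from −0.31 to −0.20. The summed root marker level, most of it PYK10, was 3500.3 to 3873.2 CPM in WT and 4149.3 to 4240.9 CPM in hon45. No marker of either list was at 0 counts. The part of tissue proportions in the result was not tested.

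**Figure D5:**
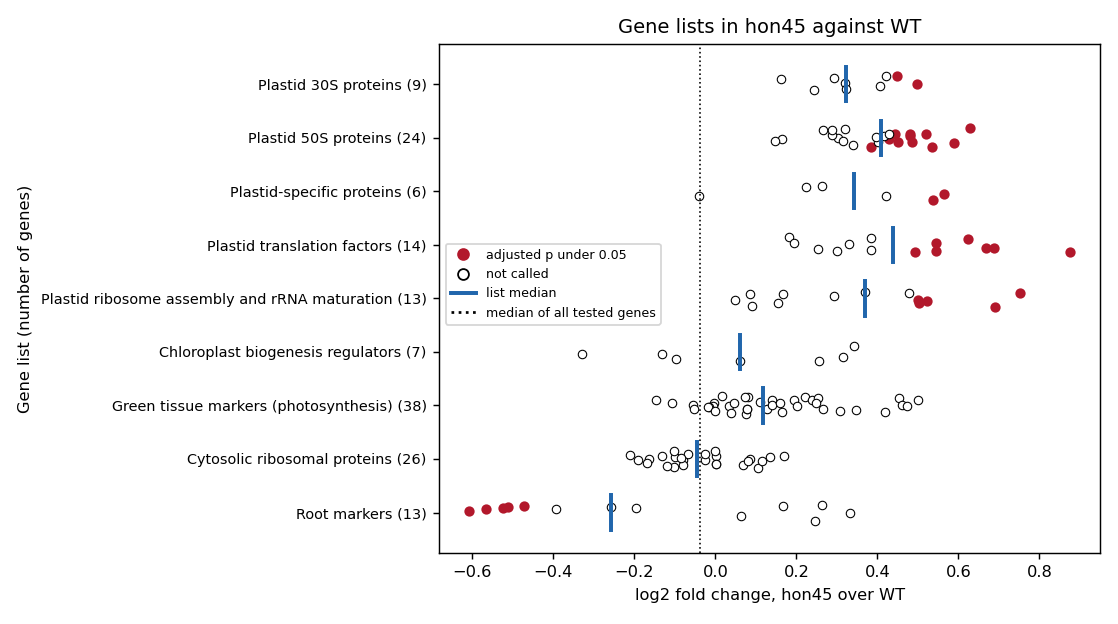
Log2 fold change, hon45 over WT, of each gene in 9 gene lists; filled points have an adjusted p under 0.05, open points were not called, blue bars are list medians and the dotted line is the median of all tested genes. The 5 lists for the plastid ribosome, its factors and its assembly have medians from 0.32 to 0.44, against −0.05 for the 26 listed cytosolic ribosomal proteins.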

How the data were processed

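RNA-seq libraries from whole seedlings, 2 of WT and 2 of hon45, were used. Gene counts are raw whole numbers per gene, deposited by the authors with 1 column per library. FPKM values were deposited by the authors in 1 file per library, per the file headers. The tools named in the submitters' processing notes, without roles, are deepTools, HISAT2, Bowtie2 and edgeR, and the build is TAIR10. For the counting program and its annotation, nothing was given in the sources used here. Coordinates are those of the FPKM files (TAIR10), with 1 added to the start. All 39 members, and all 150 listed genes, matched by locus tag in the RefSeq table of TAIR10.1, which gave names and overlaps; 9287 tested genes overlap another counted gene, and strand use in counting is not stated. No sequences were used here. Values of 2 members are not reported here one by one, and the counts and medians include them.

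In R 4.3.3, edgeR 4.0.16 filtered genes with filterByExpr, scaled by TMM and compared hon45 with WT by glmQLFit (legacy = FALSE) and glmQLFTest over all genes, with genotype as the only term. The design named this test but not its version. The package default, the older quasi-likelihood method, was run first and called 1149 genes (692 higher, 457 lower). After 16 combinations of settings had been compared by their number of calls over all genes, the newer method was chosen because it gave 1199, the count of an earlier analysis of these data, and not on independent grounds. It calls 15 members, the older method 11. A standard error is the size of the log2 fold change divided by the root of its F statistic. Fold changes are fitted and CPM are given per library. The script was tested on simulated data. Alternatives used limma 3.58.1, DESeq2 1.42.0, other filters and scalings, FPKM, a length trend and left-out libraries. Named genes were all members, HON4, HON5, and from each other list up to 4 called genes with the smallest p, or else the one with the smallest p. The members and lists were chosen with earlier results of these data known.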

Additional observations from a re-analysis of the deposited data

How the results depend on the processing

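The count of risen plastid ribosomal protein genes, 15 of 39, was 6 with library totals in place of TMM, 1 with only genes at 5 CPM or more in 2 libraries, 1 at an adjusted p under 0.01, and 0 with FPKM under a pseudocount of 1 or 0.1 or without a filter. Leaving out 1 library gave 0 to 36. Under RLE size factors (22), no count filter (18) and the older quasi-likelihood method (11, the package default, which was run before the reported method was chosen) it stayed within 1.5 times. No member fell in any setting. The members' median was 0.40 and lay between 0.21 and 0.62 with 1 library left out, the upper value without WT replicate 2, and between 0.37 and 0.45 otherwise. Over all genes 724 rose and 475 fell. With library totals 535 of all genes rose and 402 fell, and under RLE size factors 1047 rose and 534 fell. Without a count filter 811 rose and 412 fell, and with the older quasi-likelihood method 692 rose and 457 fell. With genes at 5 CPM or more 345 rose and 379 fell (47.7% higher), and at an adjusted p under 0.01 175 rose and 150 fell. FPKM gave 40 and 81 with a pseudocount of 1, 36 and 74 with 0.1 and 0 and 0 without a filter. With the length trend removed 411 rose and 543 fell (genes from 5 CPM) or 470 rose and 250 fell (genes from 1 CPM), and DESeq2 called 776 higher and 283 lower, so that the share of higher calls was 43.1%, 65.3% and 73.3% against 60.4% in the reported fit. With 1 library left out 37 to 2229 rose and 82 to 1607 fell. PSRP3 (AT5G15760) changed sign, to 0.03 without WT replicate 2, 0.10 without hon45 replicate 1 and 0.012 with the length trend of genes from 1 CPM removed, and was −0.15 without hon45 replicate 2. The cause was not tested. With a replicate block 22 members and 1119 of all genes rose and 648 fell; same-numbered libraries deviated together only weakly (r = 0.026 over all tested genes), and the labels do not say that a number pairs libraries.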
